A study of Mus musculus with 9 samples.

Results

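Cadherin genes of mesenchyme were followed in sorted cells of the developing mouse knee. The set was chosen by gene symbol, with symbols matched to Ensembl identifiers through GENCODE M21, and holds Cdh2, Cdh3, Cdh4, Cdh6, Cdh7, Cdh8, Cdh10, Cdh11, Cdh13 and Cdh19, which are 10 of the 54532 genes in the deposited table. All embryos were at stage E14.5 and heterozygous for a pair of reporter alleles, Creb53XHA-P2A-tdTomato/+ and Sox9iresEGFP/+. Creb5 encodes a bZIP transcription factor and its allele gives red fluorescence (RFP), while Sox9 encodes the transcription factor that directs cartilage formation and its allele gives green fluorescence (GFP). Knee cells were sorted into GFP-only, double-positive and RFP-only populations, called GFP cells, DP cells and RFP cells from here on, each with 3 bulk RNA libraries, 1 from each of the litters numbered 1, 2 and 5. All 3 populations therefore carry both alleles and differ in which reporter was detected, and a sorted population can hold any cell type with that reporter. No animals without the reporter alleles were analysed here.

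Cadherins are calcium-dependent adhesion molecules whose extracellular repeats bind cadherins of neighboring cells, and whose cytoplasmic tails bind catenins that link the contact to actin. In the limb, N-cadherin is known from the condensation of mesenchyme before cartilage forms, and cadherin-11 is known as a mesenchymal cadherin of loose connective tissue, the osteoblast lineage and the synovial lining. By structure, 9 of the 10 genes encode classical cadherins. Cdh2 (N-cadherin), Cdh3 (P-cadherin) and Cdh4 (R-cadherin) are the 3 type I members, and Cdh6, Cdh7, Cdh8, Cdh10, Cdh11 and Cdh19 are the 6 type II members. Cdh13 (T-cadherin) is not a classical cadherin in the strict sense, since it is held in the membrane by a lipid anchor and has no tail to bind catenins.

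RefSeq promoter sequences (GRCm38.p6) were matched for 4 of the genes, Cdh6, Cdh7, Cdh8 and Cdh10. The 250 bases before the start site are shown for Cdh6 and Cdh8, a pair of type II genes that both passed the test as higher in RFP than in GFP cells and whose windows lie outside their own gene models. The Cdh6 window is chr15:13173676-13173925 and the Cdh8 window chr8:99416472-99416721, both on the minus strand. The Cdh8 window overlaps the GENCODE models of A330008L17Rik and Gm15680. Capitals mark matches, on either strand, to the cyclic AMP response element TGACGTCA, its 5-base core TGACG, the SOX motifs ACAAAG and ACAATG, or the E2-box CACCTG.
Cdh6: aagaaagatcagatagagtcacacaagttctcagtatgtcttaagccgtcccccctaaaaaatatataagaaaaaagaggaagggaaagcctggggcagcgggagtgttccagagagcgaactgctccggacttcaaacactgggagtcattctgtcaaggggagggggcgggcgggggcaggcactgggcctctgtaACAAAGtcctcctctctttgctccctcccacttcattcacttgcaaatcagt
Cdh8: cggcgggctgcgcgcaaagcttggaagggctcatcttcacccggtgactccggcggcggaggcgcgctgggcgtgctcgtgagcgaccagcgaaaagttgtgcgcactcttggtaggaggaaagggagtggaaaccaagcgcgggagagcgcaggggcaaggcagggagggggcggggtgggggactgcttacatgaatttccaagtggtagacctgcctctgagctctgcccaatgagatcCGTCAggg
The Cdh6 window holds a SOX match (ACAAAG) that begins 52 bases before the start, and ACAAAG is found in 16.5% of 32851 RefSeq promoter windows of this length. The Cdh8 window holds this core (CGTCA on the strand shown) that begins 8 bases before the start, and the core is found in 17.8% of windows. Neither window holds the full element, which 1.55% of windows hold. ACAATG is found in 10.7% and the E2-box in 17.2% of windows, and neither Cdh6 nor Cdh8 has a match to them. A match describes the letters and says nothing of binding.

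Values are the deposited normalized counts, given by litter in the order 1, 2 and 5. The ± beside a log2 fold change is its standard error (SE), and the changes come from limma fitted to log2(normalized count + 1) over 17764 genes with a mean of at least 10, with p values adjusted by Benjamini and Hochberg over all of these genes and calls at an adjusted p under 0.05. On this scale the changes of low genes are understated. All 10 cadherin genes passed the filter, Cdh7 through RFP cells alone. The labels' check genes followed the sort, with Creb5 at 203 ± 68.1 (SD, n = 3), 3044 ± 333 and 2959.8 ± 832 in GFP, DP and RFP cells, and Sox9 at 28910.0 ± 8025, 23474 ± 6622 and 1618 ± 457. Totals lay between 25199258 and 47079305 reads per library. The GFP library of litter 5 stood apart from the other libraries of its population, with correlations over tested genes of 0.908 and 0.915 to them, while they correlated at 0.946 with each other. Its level of Cdh11 was lower than the mean of the other 2 GFP libraries by 2.68 on the log2 scale, and 3.20% of tested genes were as low there or lower. Cdh2 (-2.96, 2.54% of genes) and Cdh3 (-2.71, 3.10%) were similarly low in it, while Cdh6 (0.24) and Cdh13 (0.13) were not. Cdh19 (-1.61, 9.45%), Cdh4 (-1.47, 11.2%), Cdh10 (-1.22, 15.3%) and Cdh8 (-0.99, 20.4%) were lower in it by less. The median over all tested genes was 0.01. The results for Cdh2, Cdh3 and Cdh11 are given with and without it. Those of genes outside the set are given only with it.

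Cadherin RNA that passed the test was higher in populations with the Creb5 reporter than in GFP cells, except that of Cdh19. In DP against GFP cells 3 genes rose (Cdh4, Cdh6 and Cdh13), 1 fell (Cdh19) and 6 did not pass, where 8.29% of tested genes were called, 5.27% higher and 3.02% lower. In RFP against GFP cells 6 rose (Cdh3, Cdh4, Cdh6, Cdh7, Cdh8 and Cdh13), none fell and 4 did not pass, where 20.3% of tested genes were called, 11.8% higher and 8.48% lower. In DP against RFP cells 3 were lower in DP cells (Cdh6, Cdh7 and Cdh19) and 7 did not pass, where 2.85% of tested genes were called, 1.05% lower and 1.80% higher. These comparisons share samples, so their counts are not independent of each other. Cdh7 passed the filter through RFP cells alone, so its calls are description and not support wherever they are counted. In bulk libraries fewer cells of a type and less RNA per cell cannot be told apart.

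By value alone, all 3 DP libraries lay above all 3 GFP libraries for 6 of the 10 genes and below them for 1, against 14.3% and 13.8% of tested genes. The 6 include Cdh7, which had only 3, 1 and 1 reads in DP and 0 in GFP libraries. All RFP libraries lay above all GFP libraries for 8 and below them for 1, against 20.9% and 18.5%. All DP libraries lay below all RFP libraries for 7 and above them for none, against 12.6% and 11.2%.

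The median log2 fold change of the 10 genes was 1.35 for DP against GFP cells, 2.51 for RFP against GFP cells and -1.06 for DP against RFP cells. Over all tested genes the medians were 0.04, 0.05 and -0.01. Cdh7, which had no read in GFP cells, is not among the middle values. Setting it at its lower bound therefore could not move the first and second medians (1.35 and 2.51). Means rose in the order GFP, DP, RFP for 5 of the 10 genes (Cdh3, Cdh4, Cdh6, Cdh7 and Cdh8), and 26.7% of tested genes had their means in that order. Across the 3 populations 7 of the 10 differed by the limma F-test (adjusted p of 0.000274 for Cdh6 to 0.0431 for Cdh8), against 17.2% of tested genes. Without the variance trend 5 of the 10 passed, since Cdh3 (0.0652) and Cdh8 (0.0851) did not. The others in the fit with the trend were Cdh2 (0.202), Cdh11 (0.202) and Cdh10 (0.985).

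**Figure D1:**
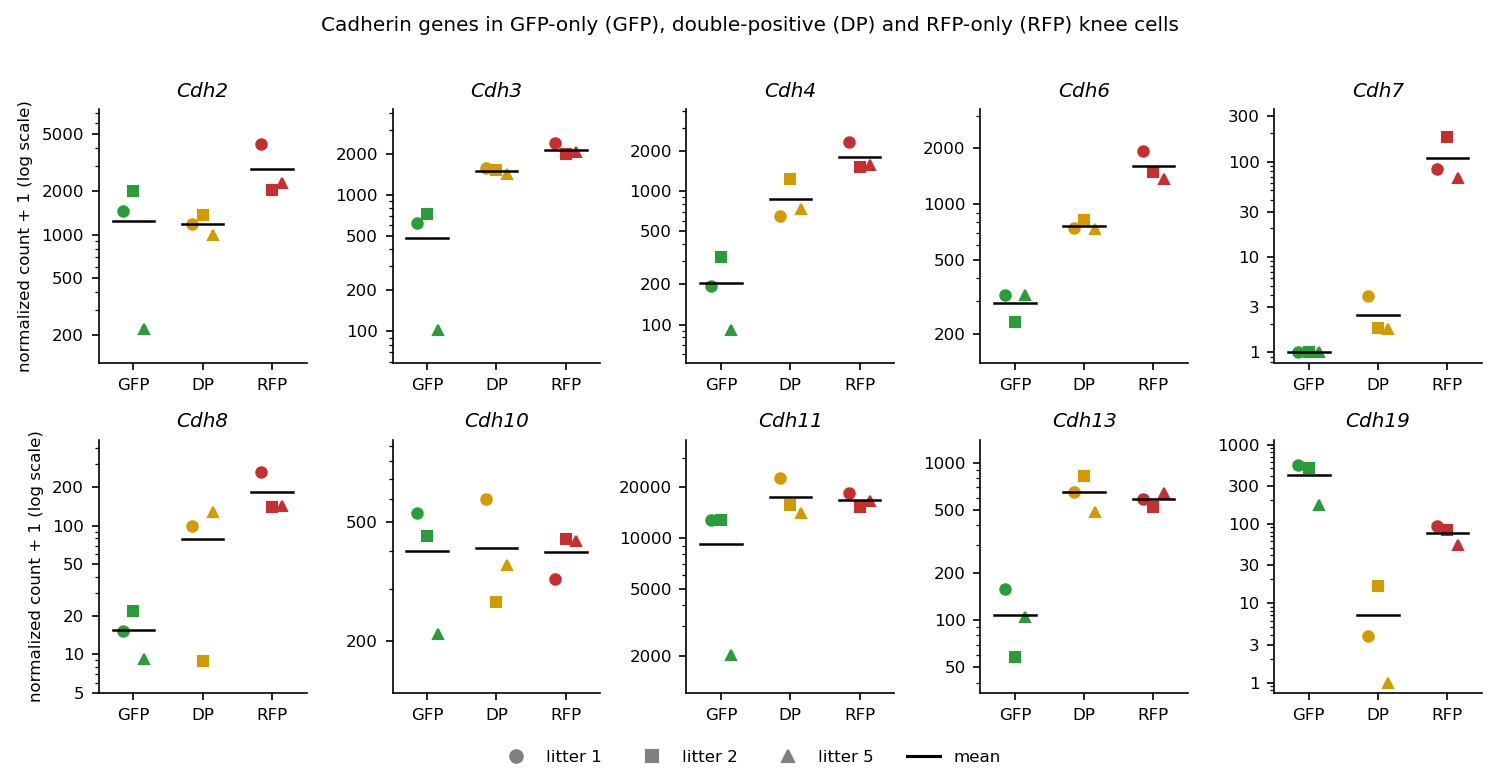
Deposited normalized counts plus 1 (log axis) of the 10 cadherin genes in GFP, DP and RFP cells, with 1 point per library, marker shape for litter and a line at the mean of 3. Cdh6 separates the populations without overlap (230 to 322, 733 to 819 and 1361 to 1941), Cdh19 is highest in GFP cells, and the GFP library of litter 5 is low for Cdh2, Cdh3 and Cdh11.

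Among the type I genes, Cdh4 had the largest fitted differences from GFP cells. Cdh4, which encodes R-cadherin and is on chromosome 2 (179442431 to 179899373, plus strand, GRCm38), had 195, 322 and 89.5 normalized counts in GFP cells. It had 649, 1243 and 741 in DP cells and 2334, 1524 and 1585 in RFP cells. No value of 1 population overlapped another's, and the order was GFP, DP, RFP in all 3 litters. Cdh4 rose by 2.24 ± 0.44 on the log2 scale in DP against GFP cells (limma adjusted p = 0.0109) and by 3.31 ± 0.44 in RFP against GFP cells (adjusted p = 0.000433). Between DP and RFP cells the Cdh4 difference of -1.08 ± 0.44 did not pass (adjusted p = 0.283, 95% interval -2.04 to -0.12 before adjustment). The first of these calls was lost without the DP library of litter 2, where the change was 1.96 (adjusted p = 0.056), and without all of litter 1 (adjusted p = 0.0767) or litter 2 (adjusted p = 0.0534). With 1 library left out, the Cdh4 change from GFP cells was 1.74 to 2.66 in DP and 2.82 to 3.74 in RFP cells.

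Cdh3, which encodes P-cadherin and is best known from epithelia and hair follicles, is on chromosome 8 (106510891 to 106557297, plus strand, GRCm38). It had 627, 721 and 102 normalized counts in GFP cells, 1563, 1529 and 1434 in DP cells and 2413, 1989 and 2059 in RFP cells. All 9 values kept the populations apart, and DP values lay within a narrow range. Cdh3 was higher in RFP than in GFP cells by 2.58 ± 0.58 (adjusted p = 0.00926), and by 1.67 (adjusted p = 0.000172) without the GFP library of litter 5. In DP against GFP cells its difference of 2.07 ± 0.58 fell just outside the threshold (adjusted p = 0.0504). With litter as a fixed replicate block the adjusted p of that difference was 0.0419, and without the GFP library of litter 5 the difference was 1.16 (adjusted p = 0.00356). It passed in 10 of 24 alternative fits, over which the adjusted p was 0.00356 to 0.151. Between DP and RFP cells Cdh3 differed by -0.51 ± 0.58 (adjusted p = 0.872).

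Epidermal markers were read beside Cdh3 because P-cadherin is an epithelial gene. Their summed level over 8 genes was 972 to 2299 normalized counts in GFP, 1522 to 1698 in DP and 832 to 1292 in RFP libraries. Cdh1, the E-cadherin gene that defines epithelium, had 14.9, 113 and 0 in GFP, 87.4, 104 and 68.8 in DP and 15.2, 20.4 and 0 in RFP libraries. Epcam, a further epithelial marker, had means of 172 ± 70.2, 332 ± 69.3 and 378 ± 94.5 in GFP, DP and RFP cells and rose by 1.18 ± 0.38 in RFP against GFP cells (adjusted p = 0.0476). Krt8, a keratin gene, fell in that comparison (-2.68 ± 0.58, adjusted p = 0.00746), and the median log2 fold change of the 8 genes was -0.75. Of the 8 genes 1 rose and 1 fell there, where 11.8% of all tested genes were called higher and 8.48% lower. None of the 8 passed in DP against GFP cells, where 8.29% of all tested genes were called. The part of epithelial cells in the Cdh3 difference was not tested.

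Cdh2, the gene of N-cadherin on chromosome 18 (16588877 to 16809246, minus strand, GRCm38), had 1471, 2026 and 221 normalized counts in GFP cells. It had 1186, 1373 and 1000.4 in DP cells and 4286, 2052 and 2302 in RFP cells. RFP values lay above all others, though by little for litter 2, where the Cdh2 log2 ratio of RFP to GFP cells was 0.02. The Cdh2 difference between RFP and GFP cells, 1.64 ± 0.66, did not pass (adjusted p = 0.102), and without the GFP library of litter 5 it was 0.66 (adjusted p = 0.168). Between DP and GFP cells it was 0.43 ± 0.66 (adjusted p = 0.718), and it turned to -0.55 (adjusted p = 0.316) without that library. Between DP and RFP cells Cdh2 differed by -1.21 ± 0.66 (adjusted p = 0.512). This difference passed in only 2 of 24 alternative fits. They were that without the GFP library of litter 5 (-1.21, adjusted p = 0.0309) and that of these 2 populations alone (adjusted p = 0.0439).

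**Figure D2:**
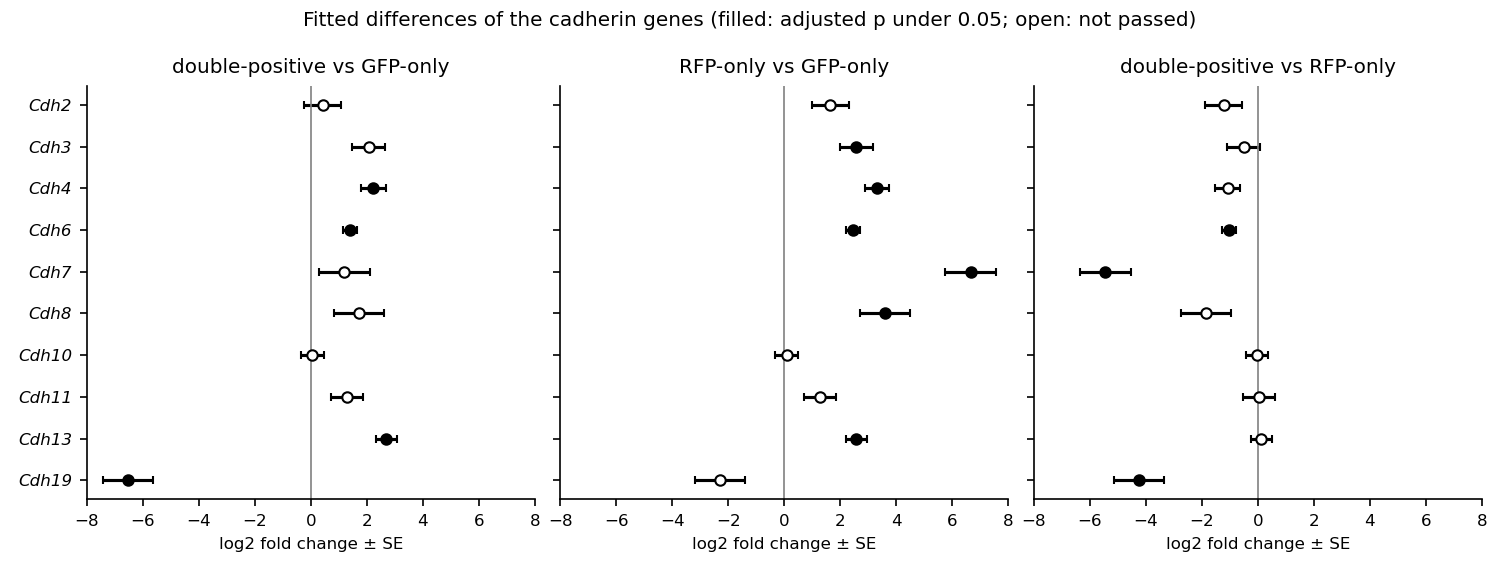
Fitted log2 fold changes with their SE (horizontal bars) for the 10 cadherin genes in the 3 comparisons, each from a fit of 9 libraries, with filled points for an adjusted p under 0.05. Cdh4, Cdh6 and Cdh13 are filled in both comparisons with GFP cells, and Cdh19 lies far to the left at -6.52 in DP cells; the value of Cdh7 against GFP cells, which had no read, depends on the pseudocount and is no bound.

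Cdh6 was called in all 3 comparisons. Cdh6, which encodes K-cadherin, a cadherin of kidney and neural crest, is on chromosome 15 (13028701 to 13173675, minus strand, GRCm38). It had 322, 230 and 322 normalized counts in GFP cells, 741, 819 and 733 in DP cells and 1941, 1487 and 1361 in RFP cells. The 3 populations were stepped without overlap, with an SD of at most 53.0 in the lower 2 populations. Cdh6 rose by 1.40 ± 0.25 in DP against GFP cells (adjusted p = 0.00701) and by 2.45 ± 0.25 in RFP against GFP cells (adjusted p = 8.43e-05). It was the only gene of the 10 that was called higher in DP than in GFP cells and lower than in RFP cells, since it was also lower in DP than in RFP cells (-1.05 ± 0.25, adjusted p = 0.04998). That last call sits at the threshold: it was lost without any 1 RFP or DP library or the GFP library of litter 1, and with litter as a fixed replicate block (adjusted p = 0.0668), at adjusted p values of up to 0.222 with 1 library left out. It held in 9 of 24 alternative fits, and in none of those without a whole litter (adjusted p of 0.0905 to 0.596). The call in DP against GFP cells was lost without litter 1 (adjusted p = 0.0858) or litter 2 (adjusted p = 0.14).

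Cdh7 was read almost only in RFP cells. Cdh7, a type II cadherin known from neural crest and the nervous system, is on chromosome 1 (109982431 to 110140157, plus strand, GRCm38). It had 0 reads in all 3 GFP libraries, 5 reads over the DP libraries (3, 1 and 1) and 315 over the RFP libraries (108, 160 and 47). In normalized counts the RFP values were 82.3, 181 and 65.8, a mean of 110 ± 62.4. Against a floor of 3 reads over the GFP group, Cdh7 was at least 96.6-fold higher in RFP cells (limma adjusted p = 0.000535). Against DP cells it was also higher in RFP cells, with a difference of -5.45 ± 0.91 for DP against RFP cells (adjusted p = 0.0087). That call was lost without the RFP library of litter 1 (adjusted p = 0.0549) or 2 (adjusted p = 0.0924). DP and GFP cells were not distinguished at this depth (adjusted p = 0.438). As Cdh7 passed the filter through RFP cells alone, its p values for RFP cells are description only.

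Cdh8, a type II cadherin of neurons on chromosome 8 (99024471 to 99416471, minus strand, GRCm38), was low throughout. It had 14.1, 20.8 and 8.14 normalized counts in GFP cells, 98.0, 7.80 and 126 in DP cells and 262, 138 and 141 in RFP cells. The DP libraries were split, with that of litter 2 (10 reads) among the GFP values. Cdh8 rose by 3.59 ± 0.90 in RFP against GFP cells (adjusted p = 0.0161), a call lost without the RFP library of litter 1 (3.29, adjusted p = 0.068), and its call among the 3 populations was lost with litter as a fixed replicate block (adjusted p = 0.0514), with no filter (0.0762), with quantile normalization (0.0795) and without the variance trend (0.0851). Its difference between DP and GFP cells, 1.74 ± 0.90, did not pass (adjusted p = 0.256) but was 2.96 (adjusted p = 0.0257) without the DP library of litter 2. DP and RFP cells differed by -1.85 ± 0.90 (adjusted p = 0.42).

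Cdh10, a further type II cadherin best known from the nervous system (chromosome 15, 18818947 to 19014236, plus strand, GRCm38), showed no difference that passed. It had 537, 449 and 210 normalized counts in GFP, 597, 269 and 357 in DP and 323, 438 and 433 in RFP cells, and the populations overlapped in every comparison. Its log2 fold changes were 0.06 ± 0.41, 0.09 ± 0.41 and -0.03 ± 0.41 in the comparisons of DP with GFP, RFP with GFP and DP with RFP cells. The 95% intervals, which reached from -0.84 to 0.95, from -0.80 to 0.98 and from -0.93 to 0.86, leave room for differences of nearly 1 on the log2 scale.

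Cdh11 had the highest level of the 10 genes in each of the 9 libraries, per kilobase of exon as well as in normalized counts. This osteoblast and synovial cadherin gene is on chromosome 8 (102632095 to 102785642, minus strand, GRCm38). It had 12888, 12893 and 2018 normalized counts in GFP cells, 22709.9, 15651 and 14045 in DP cells and 18658, 15245 and 16614 in RFP cells. GFP values lay below all others, and DP and RFP values overlapped. The Cdh11 differences from GFP cells, 1.30 ± 0.57 for DP and 1.27 ± 0.57 for RFP cells, did not pass (adjusted p = 0.189 and 0.141). Without the GFP library of litter 5 they were 0.41 and 0.38 (adjusted p = 0.244 and 0.215). Between DP and RFP cells Cdh11 differed by 0.03 ± 0.57 (95% interval -1.23 to 1.28).

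**Figure D3:**
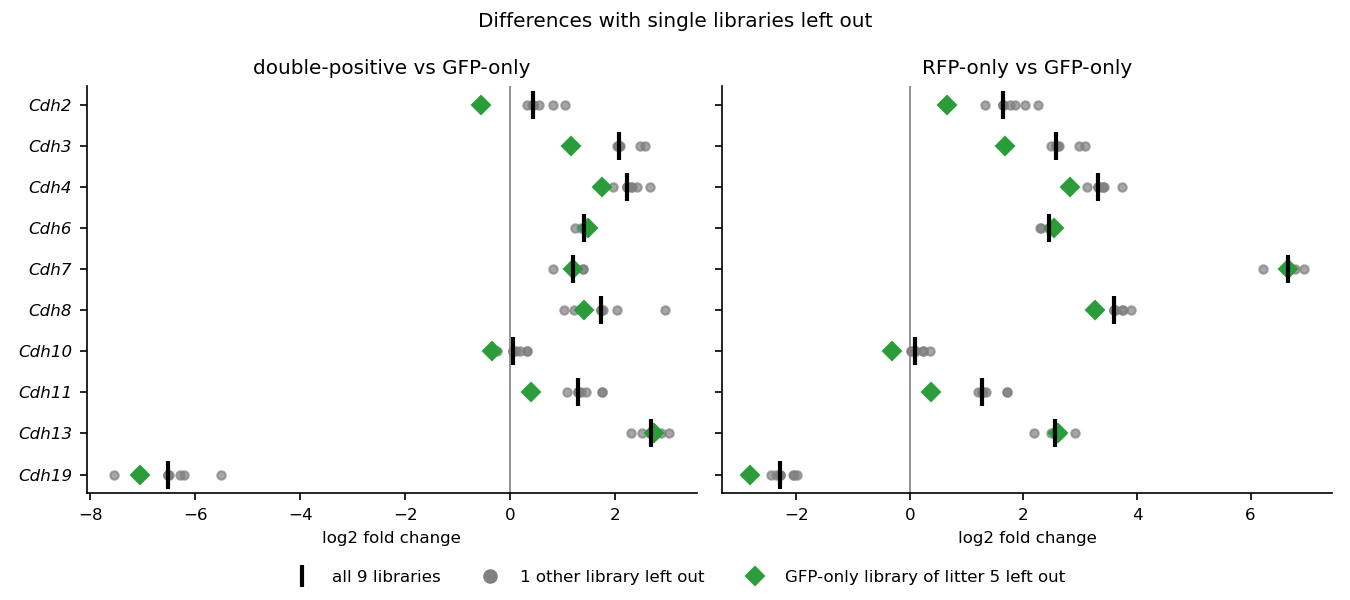
Log2 fold changes of the 10 cadherin genes against GFP cells with all 9 libraries (black bar), with the GFP library of litter 5 left out (green diamond) and with each of the other libraries left out (grey points). The diamonds of Cdh2, Cdh3 and Cdh11 lie nearer to 0 or beyond it (Cdh11 at 0.41 and 0.38), while those of Cdh6 and Cdh13 stay close to the black bars.

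Cdh13, the T-cadherin gene, was higher in both populations with the Creb5 reporter. It is on chromosome 8 (118283733 to 119324921, plus strand, GRCm38), and its product is known as a receptor of adiponectin in vessels and muscle. It had 157, 57.5 and 104 normalized counts in GFP cells, 654, 819 and 489 in DP cells and 592, 524 and 647 in RFP cells. GFP values did not overlap the others, while DP and RFP values were interleaved. Cdh13 rose by 2.69 ± 0.38 in DP (adjusted p = 0.0022) and by 2.56 ± 0.38 in RFP cells (adjusted p = 0.000847) against GFP cells, with 1 sign in all 3 litters. The first call was lost without litter 2 (2.13, adjusted p = 0.0525). DP and RFP cells differed by 0.13 ± 0.38 (adjusted p = 0.975), with a 95% interval of -0.70 to 0.96.

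Cdh19 was the gene of the set that fell. Cdh19, a type II cadherin known from Schwann cell precursors, is on chromosome 1 (110888326 to 110977584, minus strand, GRCm38). It had 558, 507 and 174 normalized counts in GFP cells, 2.88, 15.6 and 0 in DP cells (3, 20 and 0 reads) and 93.7, 82.7 and 53.2 in RFP cells. The 3 populations did not overlap, and the lowest level was in DP cells, not at either end of the reporters. Cdh19 was lower in DP than in GFP cells, with a log2 fold change of -6.52 ± 0.89 (adjusted p = 0.00204), a value that became -7.54 when DP litter 2 was left out and -5.52 when DP litter 5 was. Without all of litter 1 its adjusted p was 0.0501. It was also lower in DP than in RFP cells (-4.23 ± 0.89, adjusted p = 0.0302). The second call was lost without the DP library of litter 1 or 5 or any 1 RFP library (adjusted p of 0.0726 to 0.12), with edgeR on recovered reads (adjusted p = 0.0846), and without the variance trend (0.0693). The lower level in RFP than in GFP cells, -2.28 ± 0.89, did not pass (adjusted p = 0.0952). It passed in 7 of 24 alternative fits, among them that with litter as a fixed replicate block (adjusted p = 0.0428). Over these fits the adjusted p was 0.00923 to 0.321.

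Markers of Schwann cells and neural crest did not follow 1 pattern beside Cdh19. Of 12 such genes, 1 rose and 3 fell in DP against GFP cells, and 6 rose and 3 fell in RFP against GFP cells, where 5.27% and 3.02%, and 11.8% and 8.48%, of all tested genes were called higher and lower. Their summed level was 5592 to 6080 normalized counts in GFP, 1976 to 4046 in DP and 4310.0 to 5909 in RFP libraries. Mbp, the myelin basic protein gene, had 1395, 2069 and 1989 in GFP cells, 27.9, 81.9 and 234 in DP cells and 120, 99.7 and 126 in RFP cells, and fell in both comparisons with GFP cells (-4.44 ± 0.60 and -3.96 ± 0.60, adjusted p = 0.00189 and 0.000996). Sox10, the transcription factor gene that defines the lineage, had 1908, 1972 and 952 in GFP, 1045, 782 and 1486 in DP and 431, 388 and 325 in RFP cells, so it was not lowest where Cdh19 was lowest. Foxd3, a factor gene of neural crest and Schwann cell precursors, was near 0 in GFP cells (1.65, 1.22 and 1.36) and reached 120, 92.9 and 58.8 in RFP cells. The part of Schwann cells in the Cdh19 difference was not tested.

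**Figure D4:**
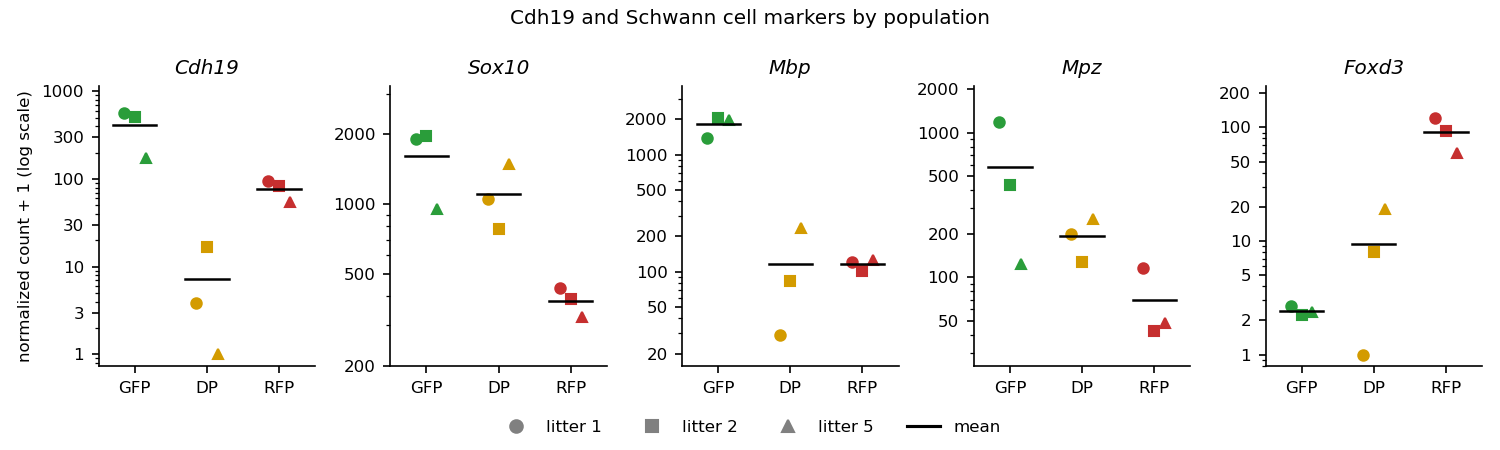
Deposited normalized counts plus 1 (log axis) of Cdh19 and 4 Schwann cell markers by population, with 1 point per library, marker shape for litter and a line at the mean of 3. Mbp is highest in GFP cells like Cdh19, Sox10 is lowest in RFP cells, and Foxd3 is highest in RFP cells (58.8 to 120).

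Levels were compared between genes per kilobase of exon. Summed over the 10 genes, the level per kilobase was 2035, 2104 and 397 in GFP, 3357, 2643 and 2307 in DP and 3863, 2940 and 3128 in RFP cells. Cdh11 made up 65.7 ± 7.54% of this sum in GFP, 70.3 ± 5.02% in DP and 57.4 ± 2.80% in RFP cells (SD, n = 3). By library the Cdh11 share was 76.0%, 66.5% and 68.4% in DP cells and 54.2%, 58.2% and 59.7% in RFP cells, without overlap. An exact two-sided permutation test of that difference gave p = 0.1, the smallest that 3 against 3 libraries allow, and p = 0.3 and 0.6 for RFP and DP against GFP cells.

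Behind Cdh11 the make-up differed by population. Cdh3 took 6.90 ± 0.99%, 12.7 ± 1.84% and 14.9 ± 0.60% of the summed level per kilobase in GFP, DP and RFP cells. Cdh2 took 9.27 ± 2.53%, 5.40 ± 1.03% and 10.5 ± 2.82%, Cdh4 2.18 ± 0.90%, 4.52 ± 1.91% and 7.48 ± 0.73%, and Cdh6 3.98 ± 4.33%, 3.13 ± 0.60% and 5.33 ± 0.44%. The Cdh6 share of GFP cells rests on the library of litter 5 (1.76%, 1.21% and 8.97% by litter), and in the other 2 GFP libraries it was below that of every DP library (2.45%, 3.43% and 3.52%). Cdh19 took 7.42 ± 2.46% in GFP cells and 0.0526 ± 0.0745% in DP cells. The share of all genes but Cdh11 was 42.6 ± 2.80% in RFP cells. The order of Cdh2 and Cdh3 in RFP cells depends on the length used: by the longest transcript, Cdh2 took 11.9% and Cdh3 10.1%.

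**Figure D5:**
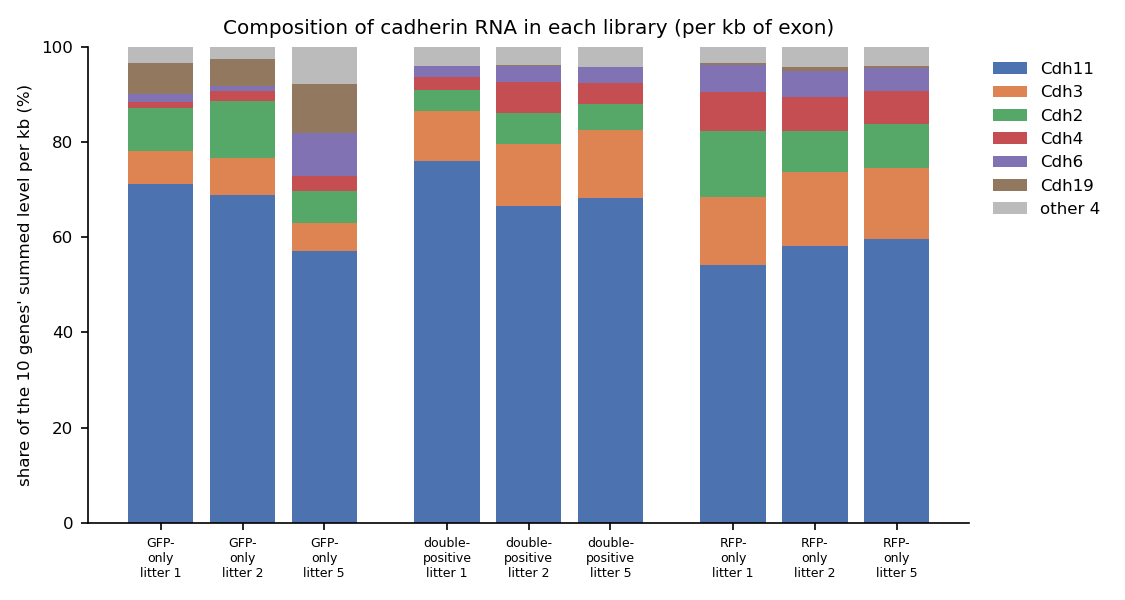
Share of each cadherin gene in the summed level per kilobase of exon of the 10 genes (percent, bars from 0 to 100), for each of the 9 libraries. Cdh11 is the largest segment in every bar (54.2% to 76.0%), the Cdh19 segment is widest in GFP libraries (5.63% to 10.2%), and Cdh3 and Cdh4 are wider in RFP than in GFP cells.

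Catenins bind the cadherin tail or link it to actin. Of their genes, Ctnnb1, Ctnna1 and Ctnnd1 had no difference that passed, while Jup, Ctnnd2 and Ctnna2, given further on, did. Ctnnb1 (beta-catenin) had 33428 ± 7504, 30923 ± 720 and 24295 ± 1010 normalized counts in GFP, DP and RFP cells, and its differences of -0.09 ± 0.20 and -0.43 ± 0.20 from GFP cells did not pass (adjusted p = 0.824 and 0.155). Ctnna1 (alpha-E-catenin) had 5389 ± 1466, 5088 ± 516 and 5423 ± 676 (differences of -0.05 ± 0.23 and 0.04 ± 0.23). Ctnnd1 (p120-catenin) also did not pass (0.26 ± 0.28 and 0.55 ± 0.28). These 3 genes, and Cdh1 and Foxd3 as defining markers, lie outside the rule for named genes and were chosen after their values were seen.

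Of 15 catenin and linker genes 14 were tested, of which 2 rose in DP and 4 rose and 1 fell in RFP against GFP cells, with a median log2 fold change of 0.28 and 0.46 (0.04 and 0.05 over all tested genes). Of all tested genes 8.29% and 20.3% were called in these comparisons, 5.27% and 11.8% higher and 3.02% and 8.48% lower. Ctnnd2 (delta-catenin, known from neurons) went from 11.1 ± 12.6 normalized counts in GFP to 408 ± 128 in DP and 139 ± 49.9 in RFP cells, with changes of 5.57 ± 0.68 and 3.997 ± 0.68 (adjusted p = 0.00114 and 0.00205). Jup (plakoglobin) rose by 2.31 ± 0.48 in RFP cells (adjusted p = 0.00628), from 438 ± 272 to 1778 ± 95.6. Its GFP values were 530, 653 and 132 by litter, lowest in litter 5. Ctnna2 (alpha-N-catenin) rose by 3.65 ± 0.52 in RFP cells, and Ctnnal1 fell (-1.15 ± 0.35).

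Protocadherins, which lack the catenin-binding tail of classical cadherins, were measured as a further group. Of 12 non-clustered protocadherin genes 4 rose, none fell and 8 did not pass in DP against GFP cells, and 7 rose and none fell in RFP against GFP cells (medians 1.43 and 2.19), where 5.27% and 11.8% of all tested genes were called higher. Pcdh19 had 96.0 ± 36.4, 476 ± 271 and 1447 ± 85.1 normalized counts in GFP, DP and RFP cells (2.24 ± 0.42 and 3.98 ± 0.42 against GFP cells). Pcdh18 had 1813 ± 1166, 6641 ± 900.4 and 11034 ± 2423 (2.12 ± 0.44 and 2.83 ± 0.44). Of 12 tested genes of the Fat, Dachsous, Celsr and calsyntenin groups 3 rose in DP and 7 in RFP cells against GFP cells, and none fell, with Fat4, a planar polarity cadherin, at 1.34 ± 0.37 in DP cells (adjusted p = 0.0481). The same shares of all tested genes, 5.27% and 11.8%, stand beside these counts. In GFP cells Fat4 had 1002, 1222 and 393 and Pcdh18 had 2987, 1798 and 655 by litter, both lowest in litter 5.

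Among 9 nectin and nectin-like genes, 3 rose and 1 fell in DP and 2 rose and 1 fell in RFP against GFP cells, with Nectin2, which forms contacts beside cadherins, at 1.03 ± 0.21 and 1.65 ± 0.21 and Cadm1 at -1.23 ± 0.26 and -0.88 ± 0.26. Among 10 protease genes that process cadherins, Pcsk6, a proprotein convertase gene, fell in both comparisons (-2.16 ± 0.38 and -2.01 ± 0.38), and Adam10, the sheddase gene of N-cadherin, rose in RFP cells (1.41 ± 0.43, adjusted p = 0.0382). The GFP values of Adam10 were 1865, 2722 and 673 by litter, lowest in litter 5. Of 8 genes of transcription factors that regulate cadherins, 1 rose in DP and 5 in RFP cells against GFP cells. For this list and the nectins, 5.27% of all tested genes were higher and 3.02% lower in DP, and 11.8% higher and 8.48% lower in RFP against GFP cells. Tcf4, an E-protein gene, rose in both (1.44 ± 0.24 and 1.57 ± 0.24). Twist1, a bHLH factor gene of mesenchyme, rose in RFP cells (1.63 ± 0.24) and was lower in DP than in RFP cells (-1.21 ± 0.24, adjusted p = 0.0239).

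Of the other 10 type I, type II and related cadherin genes 9 were tested, and they include markers of other cell types. Cdh15, the M-cadherin gene of muscle precursors, had 38.9, 53.9 and 67.8 normalized counts in GFP, 89.4, 141 and 231 in DP and 715, 2532 and 2877 in RFP cells and rose by 5.03 ± 0.54 in RFP against GFP cells (adjusted p = 0.000125). Cdh5, the VE-cadherin gene of endothelium, had 57.3 ± 43.2, 171 ± 71.9 and 214 ± 32.2 (2.26 ± 0.64 in RFP against GFP cells, adjusted p = 0.029). Muscle markers, Cdh15 among them, were high in RFP cells: all 9 rose in RFP against GFP cells, where 11.8% of all tested genes were called higher. Their summed level was 587 to 1465 in GFP, 1036 to 3033 in DP and 8178 to 32542 in RFP libraries. Within RFP cells the muscle sum was lowest in litter 1 (8178) and highest in litter 2 (32542). Cdh2, Cdh3, Cdh4, Cdh6, Cdh8, Cdh11 and Cdh19 were highest in litter 1, Cdh7 and Cdh10 in litter 2, and Cdh13 in litter 5. With 1 RFP library per litter, a link between the muscle sum and these levels was not tested.

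Endothelial markers summed to 452 to 1153 normalized counts in GFP, 880.1 to 4546 in DP and 4234 to 5351 in RFP libraries, and 5 of 8 rose in RFP against GFP cells. Neuronal markers summed to 293 to 908, 1758 to 4588 and 4930 to 5922 and immune markers to 78.5 to 392, 2044 to 12410 and 1138 to 3347. The neuronal sum holds Nefl, a neurofilament gene, at means of 98.0, 2023 and 3450 in GFP, DP and RFP cells. Of 7 neuronal markers 4 rose and 1 fell in DP (Stmn2, -2.70 ± 0.66, adjusted p = 0.0306) against GFP cells. In RFP against GFP cells 4 rose, 0 fell and 3 did not pass. Of 8 pericyte markers 7 rose and 1 fell in RFP against GFP cells, with a median log2 fold change of 4.22. Their sum (14403 to 17577, 6724 to 15070 and 11738 to 17141) does not show this, since it holds Cspg4, the marker that fell, at 13475 ± 1482 in GFP and 1135 ± 356 in RFP cells, while Acta2, the smooth muscle actin gene, went from 400 ± 229.5 to 6231 ± 1732. Chondrocyte markers fell, all 13 of them in RFP and 9 in DP against GFP cells. Of 11 interzone markers 7 rose and 1 fell in DP and 6 rose and 3 fell in RFP against GFP cells. Beside these marker counts stand the shares of all tested genes. In DP against GFP cells 5.27% were called higher and 3.02% lower, and in RFP against GFP cells 11.8% higher and 8.48% lower. The part of these cell types in the cadherin differences was not tested.

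Over the 9 libraries the genes most like each cadherin, among 12092 protein-coding genes with a mean of at least 100, were found by Pearson's r of log2 values, which is a description since the libraries share populations and litters. Cdh3 was closest to Sema3f (0.996), Sema3a (0.992) and Lrrc4c (0.991). Cdh4 was closest to Casq1, Ebf2 and Cxcl12 (0.990 to 0.991), Cdh6 to Tagln, Tmem59l and Syne2 (0.980 to 0.984), and Cdh13 to Ppm1k, Grem1 and Ror1 (0.968 to 0.977). Cdh7 was closest to Lix1, Dnm3 and Hba-x (0.968 to 0.980), and Cdh19 to Arfgef3, Cd96 and Gatb (0.936 to 0.958). Cdh11 was closest to Zfp512, Ctbp1 and Mgrn1 (0.989 to 0.992), Cdh2 to Epha3, Mief2 and Lrp3 (0.966 to 0.976), Cdh10 to Copg2, Ell and Jmy (0.932 to 0.954) and Cdh8 to Zfp558, Adra2a and Hace1 (0.906 to 0.924). Within the set, Cdh3 and Cdh11 (0.934), Cdh3 and Cdh4 (0.931) and Cdh4 and Cdh6 (0.903) were the closest pairs, while Cdh19 and Cdh13 were the most opposed (-0.664).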

How the data were processed

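Bulk RNA-seq libraries of 3 sorted populations from each of 3 litters were used. The deposited signal values are counts per gene that the authors had divided by size factors, and per the submitters' processing notes FastQC, STAR, Salmon, DESeq2 and the mm10 build were used; no source used here gives the strand setting. From these values whole reads were recovered (100% of values whole within 0.001). A filter kept genes averaging 10 or more across libraries, which were tested with limma 3.58.1 (trend) on log2(value + 1), all populations in 1 fit. edgeR 4.0.16 and DESeq2 1.42.0 on recovered reads were alternatives. Only the limma fit was tested on simulated data. Of 54532 gene identifiers 54495 matched GENCODE M21. The cadherins and gene lists were chosen with earlier results of these data known. The rule for names took all 10 cadherins, the 3 genes most like each, and up to 3 called genes of each other list per comparison and direction, by smallest adjusted p. The labels number litters, so numbers pair libraries: deviations of same-litter libraries correlated at a median of 0.103 (-0.0353 to 0.149, 9 pairs), and of others at -0.0409 (18 pairs). The values of 1 marker gene that counts in its list are not reported here.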

Additional observations from a re-analysis of the deposited data

How the results depend on the processing

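The settings below were each changed alone. Of the 10 cadherins, 4, 6 and 3 were called for DP against GFP, RFP against GFP and DP against RFP cells, and 7 by the F-test. Without the variance trend the F-test called 5. With litter as a fixed replicate block the counts were 5, 7, 2 and 6, and as a random block 5, 6, 3 and 7. For DP against RFP cells 1 was called without the variance trend, 0 without litter 1, 2 or 5, and 0 to 4 with 1 library left out. For DP against GFP cells DESeq2 called 6, and 1 was called without litter 1 or litter 2. Over all genes, 1472, 3601 and 506 were called. For DP against GFP cells this became 697 with 2 populations alone, 2780 with DESeq2, 342 without litter 1, 245 without litter 2, and 637 to 1582 with 1 library left out. For RFP against GFP cells it became 1609 without litter 1, 1844 without litter 2, and 2202 to 3723 with 1 library left out. For DP against RFP cells it became 1008 with 2 populations alone, 1152 with DESeq2, 118, 137 and 293 without litters 1, 2 and 5, and 216 to 1070 with 1 library left out.

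Signs turned only for differences that had not passed. Cdh2 in DP against GFP cells was -0.048 with edgeR, -0.065 with DESeq2, -0.44 without litter 5 and -0.55 to 1.04 with 1 library left out. Cdh10 in DP against GFP cells was -0.13 with quantile normalization, -0.29 without litter 5 and -0.35 to 0.33 with 1 library left out. In RFP against GFP cells it was -0.12 with quantile normalization, -0.01 with DESeq2, -0.38 without litter 5 and -0.32 to 0.36 with 1 library left out. In DP against RFP cells it was 0.043 with edgeR, 0.035 with DESeq2, 0.30 without litter 2, 0.091 without litter 5 and -0.35 to 0.23 with 1 library left out. Cdh11 in DP against RFP cells was -0.10 without litter 1 and -0.18 to 0.17 with 1 library left out, and Cdh13 was -0.13 without litter 2 and -0.0497 to 0.32 with 1 library left out. With the longest transcript as length, the Cdh11 share in RFP cells was 61.6%. The cause of these shifts was not tested.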
